A study of Mus musculus with 6 samples.

Results

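The protein subunits of the mitochondrial respiratory chain were followed by complex in 6 mouse kidney samples. Members were the non-control probes that a rule on the gene name in the scanner files matched. Names beginning with Nduf and a, b, c, s or v, Uqcr, Atp5, or Cox and a digit from 4 to 8 were taken. Sdha, Sdhb, Sdhc and Sdhd were taken as exact names. The rule found 134 of 41174 probes, for 92 of 27343 genes, and used no measured value. Of the 92 genes, 81 were counted as subunits by name: 36 of complex I, 4 of complex II, 8 of complex III, 18 of complex IV and 15 of complex V (ATP synthase). The other 11 were 7 complex I assembly factors named Ndufaf, Ndufa4, Atp5s, Atp5sl and the pseudogene-like entry Atp5c1-ps. A gene was tested where its probe was well above background on at least 2 of the 6 arrays. That left 89 of the 92 genes and 78 of the 81 subunits, with the tissue-restricted isoforms Cox4i2, Cox7b2 and Cox8c above background on 0, 1 and 0 arrays.

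The arrays were single-colour Agilent mouse arrays of whole-kidney RNA. Wild-type mice gave 2 arrays after sham surgery and 2 after ischaemia/reperfusion injury of the kidney, a loss and return of its blood flow. Gpr97-deficient mice gave 1 array after sham surgery and 1 after that injury. Gpr97 is the older name of Adgrg3, an adhesion G protein-coupled receptor. How the deficiency was made, how long blood flow was stopped and when kidneys were taken are not stated in the sources used here. Each sample title ends in a number of its own, which the labels do not tie to an animal, and p-values therefore describe the spread among these samples, part of which may be technical.

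All levels below are log2 signals relative to the 75th percentile of the same array, and they were compared between arrays for 1 probe at a time. Adgrg3 stood at 0.20 and 0.02 on the wild-type sham arrays, 1.06 and 1.18 on the wild-type injured arrays, -5.38 on the sham array of Gpr97-deficient mice and -5.75 on its injured counterpart and was above background on every array but the last, so that it was low on both arrays labelled Gpr97-deficient. Every sample has a male label. On wild-type injured array 1, however, the X-inactivation RNA Xist stood at 4.05, against -5.45 or lower elsewhere, and 4 of 4 Y-linked genes were not above background. The injury, genotype and interaction medians over the subunits are therefore given with and without it, as is the injury change of each named gene that leaving it out moved by over 1.5 times. Slide 1 carried wild-type sham array 1 with wild-type injured array 2, and slide 2 carried the other 4 arrays, so that 3 injured-minus-sham pairs lay within a slide: wild type on slide 1, wild type on slide 2 (with the discordant array) and Gpr97-deficient on slide 2. Between 63.0% and 71.1% of probes were well above background on an array and 0 spots were saturated. The kidney label matched its markers: 13 of 13 measured proximal tubule markers were above background on every array.

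The respiratory chain sits in the inner mitochondrial membrane. Complex I (NADH dehydrogenase) and complex II (succinate dehydrogenase) pass electrons to ubiquinone, complex III (the cytochrome bc1 complex) passes them to cytochrome c, and complex IV (cytochrome c oxidase) passes them to oxygen. ATP synthase uses the proton gradient that complexes I, III and IV build, and the proximal tubule, with its heavy load of active transport, depends on this route for its ATP.

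The median subunit transcript of each of the 5 complexes was lower on the injured than on the sham arrays, but no single subunit passed the test and 1 of the 3 injured arrays lay at the sham level. Over both genotypes (3 injured against 3 sham arrays, limma with genotype as a term), the median log2 change was -0.42 in complex I, -0.53 in complex II, -0.34 in complex III, -0.35 in complex IV and -0.43 in complex V. As linear differences these medians were 25.2%, 30.5%, 20.8%, 21.8% and 25.8% lower. The median over 78 subunits was -0.40 (24.4% lower), beside -0.06 over the 19615 genes tested. The sign was shared widely: 76 of 78 subunits had a change below 0, against 56.7% of all genes, and the 2 exceptions were the complex IV isoforms Cox6b2 and Cox8b.

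At an adjusted p under 0.05 (Benjamini-Hochberg, over the 19615 genes), limma called 0 of 78 subunits and 0% of all genes, and the lowest adjusted p of a member was 0.323, for Ndufb5. At an unadjusted p under 0.05, 10 subunits were lower, 5 of them in complex I, 1 in complex II, 2 in complex III, 0 in complex IV and 2 in complex V, against 6.71% of all genes in that direction. All 3 injured arrays lay below all 3 sham arrays for 24 of 78 subunits (30.8%), against 13.1% of all genes. These 24 were 12 of 36 in complex I, 3 of 4 in complex II, 2 of 8 in complex III, 2 of 15 in complex IV and 5 of 15 in complex V. In bulk kidney RNA, fewer cells rich in mitochondria and less subunit RNA per cell cannot be told apart.

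**Figure D1:**
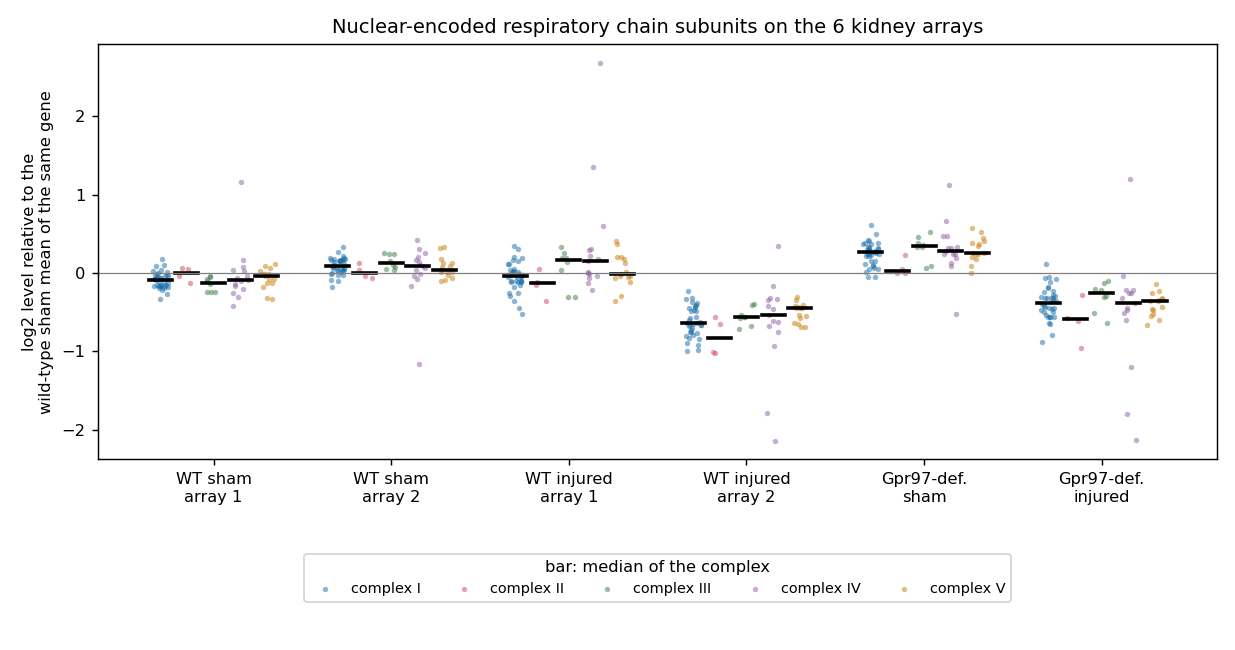
Log2 level of each of the 78 tested subunits on each array, relative to the wild-type sham mean of the same gene; each point is 1 subunit, colours mark the complex and bars are medians. Wild-type injured array 2 and the Gpr97-deficient injured array lie low in all 5 complexes (medians over all subunits -0.57 and -0.36), while wild-type injured array 1 lies at the sham level (-0.01).

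The shift was uneven between the injured arrays. Relative to the wild-type sham mean, the median over the 78 subunits was -0.08 and 0.08 on the wild-type sham arrays, -0.01 and -0.57 on wild-type injured arrays 1 and 2, 0.26 on the sham array of Gpr97-deficient mice and -0.36 on its injured counterpart. Wild-type injured array 1 therefore overlapped the sham arrays, and the Gpr97-deficient sham array was the highest of all. Wild-type injured array 1 was above array 2 for 76 of 78 subunits, against 51.2% of all genes, with a median difference of 0.60. Without wild-type injured array 1, the median changes over both genotypes became -0.63, -0.74, -0.61, -0.54 and -0.60 in complexes I to V, and -0.61 over all subunits, and the changes of 35 of 78 subunits moved by over 1.5 times. Both remaining injured arrays then lay below all 3 sham arrays for 67 of 78 subunits, against 21.2% of all genes, and 54 of 78 had an unadjusted p under 0.05 and were lower, against 10.6%. The lowest adjusted p of a member was still 0.159, so 0 were called.

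Within slides the same split appeared. Injured minus sham, the subunit median was -0.48 for the wild-type pair on slide 1, -0.08 for the wild-type pair on slide 2 and -0.66 for the Gpr97-deficient pair, beside -0.11, -0.00 and -0.05 over all genes. In the wild-type pair on slide 1, 77 of 78 subunits were lower (58.3% of all genes), 23 of them by at least 1.5-fold (20.6%). The wild-type pair on slide 2 had 54 of 78 lower (50.2%) and 1 by at least 1.5-fold (11.0%). The Gpr97-deficient pair had 77 of 78 lower (56.0%) and 52 by at least 1.5-fold (12.7%). Each pair is 1 array against 1, so none carries a test. Lower in all 3 pairs were 54 of 78 subunits, against 26.4% of all genes: 27 of 36 in complex I, 4 of 4 in complex II, 5 of 8 in complex III, 8 of 15 in complex IV and 10 of 15 in complex V. Cox6b2 alone was higher in all 3 pairs, a pattern shown by 18.7% of all genes. With slide as a block in the fit, 19 of 78 subunits had an unadjusted p under 0.05 and were lower, against 10.2% of all genes.

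**Figure D2:**
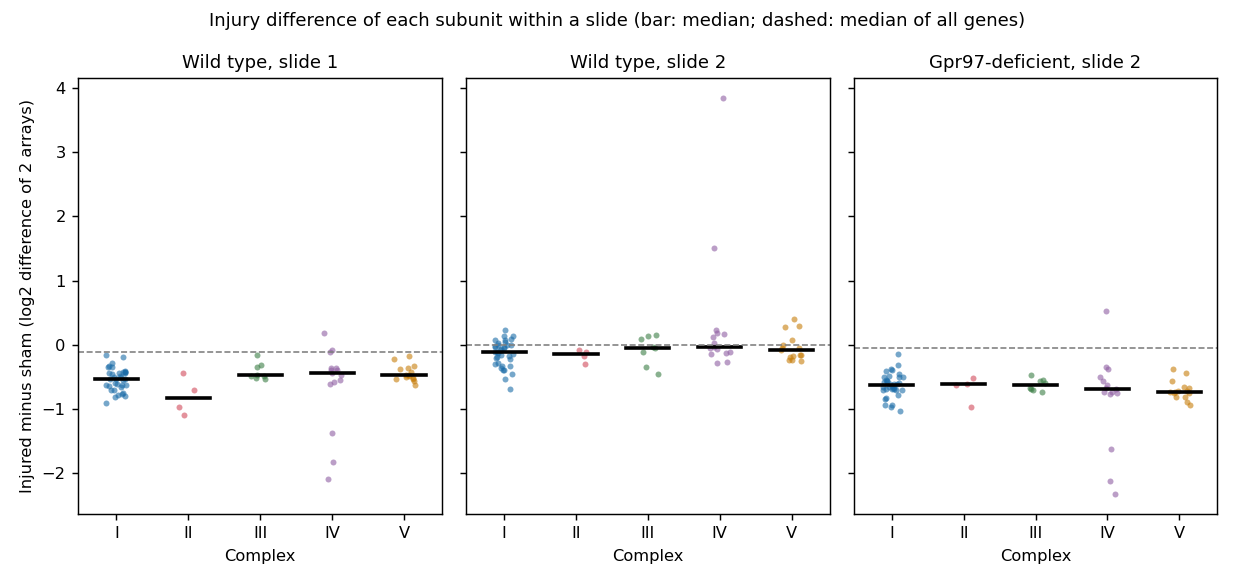
Injured minus sham log2 difference of every tested subunit within each of the 3 same-slide pairs, by complex; each point is 1 subunit, bars are medians and the dashed line is the median of all genes tested. Every complex median lies between -0.83 and -0.44 in the first pair, at or above -0.13 in the second and at or below -0.61 in the third.

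The order of the complexes was not stable. Complex II had the lowest median in both wild-type pairs (-0.83 and -0.13) but the highest in the Gpr97-deficient pair (-0.61), where complex V was lowest (-0.73). The 5 medians spanned 0.39 log2 units on slide 1, 0.10 in the wild-type pair on slide 2 and 0.11 in the Gpr97-deficient pair. Complex II rests on 4 genes, and no difference between complexes was tested.

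Complex I is built from a conserved core that carries the flavin and the iron-sulphur clusters and from many accessory subunits. The 7 nuclear core subunits had a median injury change of -0.43 and the 29 accessory subunits -0.40, and all 36 were below 0. Ndufb5, an accessory subunit of the membrane arm (probe at chr3:32650236-32650295 in mm9), stood at 2.16 and 2.34 on the wild-type sham arrays, 1.80 and 1.25 on the wild-type injured arrays, 2.34 on the sham array of Gpr97-deficient mice and 1.37 on its injured counterpart. All 3 injured arrays lay below all 3 sham arrays, with sham at 2.28 ± 0.10 (SD, n = 3) and injured at 1.48 ± 0.29 (SD, n = 3). Its change was -0.80 ± 0.21 (SE; adjusted p = 0.323), the largest in the complex. Ndufs1, the largest core subunit and an iron-sulphur protein of the NADH-oxidising arm (probe at chr1:63190360-63190419), stood at 5.68, 6.07 and 6.12 after sham surgery and 5.62, 4.90 and 5.08 after injury. Again no injured array reached a sham array, although wild-type injured array 1 came within 0.06 log2 units of wild-type sham array 1; the change was -0.75 ± 0.27 (SE; adjusted p = 0.382).

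Ndufv3, a small accessory subunit of the NADH-oxidising arm, was at 3.66, 4.19 and 4.22 after sham surgery and 3.83, 3.04 and 3.28 after injury, with a change of -0.64 ± 0.30 (SE; adjusted p = 0.463). Here wild-type injured array 1 lay between the sham arrays. On the dimmer probes of Ndufv3, A_51_P140211 and A_52_P175897, no injured array reached a sham array. Their mean differences were -0.62 and -0.62. Ndufv1, the flavin-binding subunit where NADH is oxidised, was at 6.03, 6.37 and 6.46 after sham surgery and 6.21, 5.41 and 5.96 after injury, with a change of -0.43 ± 0.27 (SE; adjusted p = 0.567). For this gene wild-type injured array 1 again overlapped the sham range. Ndufa1, an X-linked accessory subunit (probe at chrX:34727627-34727686), was between 6.69 and 7.02 on the sham arrays and between 6.19 and 6.39 on the injured arrays, without overlap, and had a change of -0.60 ± 0.17. On this gene the discordant array was as low as the others, with same-slide differences of -0.49, -0.69 and -0.61. The other X-linked subunits, Ndufb11 of complex I and Cox7b of complex IV, had changes of -0.51 ± 0.24 and -0.35 ± 0.31. At the other end, Ndufb3 (-0.15 ± 0.18) and the iron-sulphur core subunit Ndufs7 (-0.22 ± 0.30) had the smallest differences of the complex. Leaving out wild-type injured array 1 gave changes of -0.67 for Ndufv1, -0.27 for Ndufb3, -0.50 for Ndufs7 and -0.66 for Cox7b.

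Complex II, which also works in the tricarboxylic acid cycle, is the 1 complex here with no subunit encoded in mitochondrial DNA. Sdhb, its iron-sulphur subunit (probe at chr4:140522514-140527081, spanning an intron), stood at 5.49 and 5.37 on the wild-type sham arrays, 5.07 and 4.40 on the wild-type injured arrays, 5.43 on the sham array of Gpr97-deficient mice and 4.46 on its injured counterpart. The sham arrays lay within 0.12 log2 units of each other (5.43 ± 0.06 (SD, n = 3)) and above all 3 injured arrays (4.65 ± 0.37 (SD, n = 3)). Its change was -0.78 ± 0.23 (SE; adjusted p = 0.333), or 41.9% lower. Sdha, the flavin-carrying catalytic subunit, was at 3.63, 3.72 and 3.67 after sham surgery and 3.55, 2.67 and 3.06 after injury, with a change of -0.58 ± 0.27 (SE; adjusted p = 0.464). The injured arrays were below every sham array, but wild-type injured array 1 by only 0.08. The dimmer probes of Sdha differed in this. On A_52_P109503 wild-type injured array 1 stood at 2.41, below sham values of 2.74 to 2.81. On A_52_P458708 it stood at -0.89, within sham values of -1.03 to -0.82. The membrane anchors Sdhd and Sdhc, which hold the ubiquinone site, had changes of -0.47 ± 0.20 (SE; adjusted p = 0.43) and -0.34 ± 0.23 (SE; adjusted p = 0.587). Sdhd did not overlap between sham and injured arrays, and Sdhc did, through wild-type injured array 1 (4.83) against wild-type sham array 1 (4.65); without the former its change was -0.54.

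Complex III was lowest in its core protein Uqcrc2 and in Uqcrfs1, the Rieske iron-sulphur protein that carries electrons towards cytochrome c. Uqcrc2 stood at 6.31, 6.60 and 6.54 on the 3 sham arrays (the last being Gpr97-deficient) and 6.15, 5.78 and 5.95 on the 3 injured arrays. Uqcrfs1 (probe at chr13:30632363-30632422) stood at 5.95, 6.02 and 6.05 on the 3 sham arrays (the last being Gpr97-deficient) and 5.67, 5.43 and 5.35 on the 3 injured arrays. Both separated sham from injured on every array, with changes of -0.52 ± 0.19 (SE; adjusted p = 0.382) and -0.52 ± 0.16 (SE; adjusted p = 0.35). The small subunit Uqcr11 had a change of -0.42 ± 0.31 (SE; adjusted p = 0.63), and the other core protein, Uqcrc1, one of -0.24 ± 0.25 (SE; adjusted p = 0.737); in both, wild-type injured array 1 lay within the sham range, and without it the changes were -0.72 and -0.43. For Uqcrh, Uqcrb and Uqcrq, the wild-type pair on slide 2 was higher after injury by 0.13, 0.15 and 0.09, against -0.48, -0.47 and -0.31 on slide 1.

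ATP synthase consists of a catalytic F1 head and a membrane-embedded proton channel joined by stalks. In the head, the alpha subunit Atp5a1 stood at 7.34, 7.20 and 7.35 after sham surgery and 6.97, 6.86 and 6.67 after injury, so that every injured array was below every sham array, and its change was -0.46 ± 0.16 (SE; adjusted p = 0.378). Its other probe, A_51_P402496, overlapped, at 6.642 on wild-type injured array 1 and 6.635 on wild-type sham array 1. The catalytic beta subunit Atp5b stood at 8.03, 8.30 and 8.35 after sham surgery and 8.12, 7.86 and 7.91 after injury, with a change of -0.26 ± 0.18 (SE; adjusted p = 0.593), and wild-type injured array 1 lay within the sham range. These values are from the brightest of its 4 probes. On probes A_51_P207636 and A_52_P553841 no injured array reached a sham array, with mean differences of -0.62 and -0.46. On A_51_P162373 the groups overlapped, with a mean difference of -0.29. Atp5f1, the b subunit of the peripheral stalk, stood at 6.72, 6.50 and 6.60 after sham surgery and 6.25, 6.16 and 5.94 after injury and also did not overlap; its change was -0.49 ± 0.16 (SE; adjusted p = 0.367), although of its 3 probes 1 differed by 0.03 between the injured and sham means, against -0.49 and -0.45 for the others. The largest changes by size were those of Atp5j, a stalk component (-0.50 ± 0.25 (SE; adjusted p = 0.487)), and Atp5k, a small membrane subunit (-0.49 ± 0.33 (SE; adjusted p = 0.591)). Both overlapped between groups, since wild-type injured array 1 (6.92 and 5.49) lay above wild-type sham array 1 (6.79 and 5.03). The other injured arrays lay below every sham array for both genes. The 3 genes for the identical c-ring subunit, Atp5g1, Atp5g2 and Atp5g3, had changes of -0.37 ± 0.34, -0.23 ± 0.23 and -0.40 ± 0.20. The changes of Atp5k, Atp5g1 and Atp5g2 were -0.79, -0.74 and -0.44 without wild-type injured array 1.

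**Figure D3:**
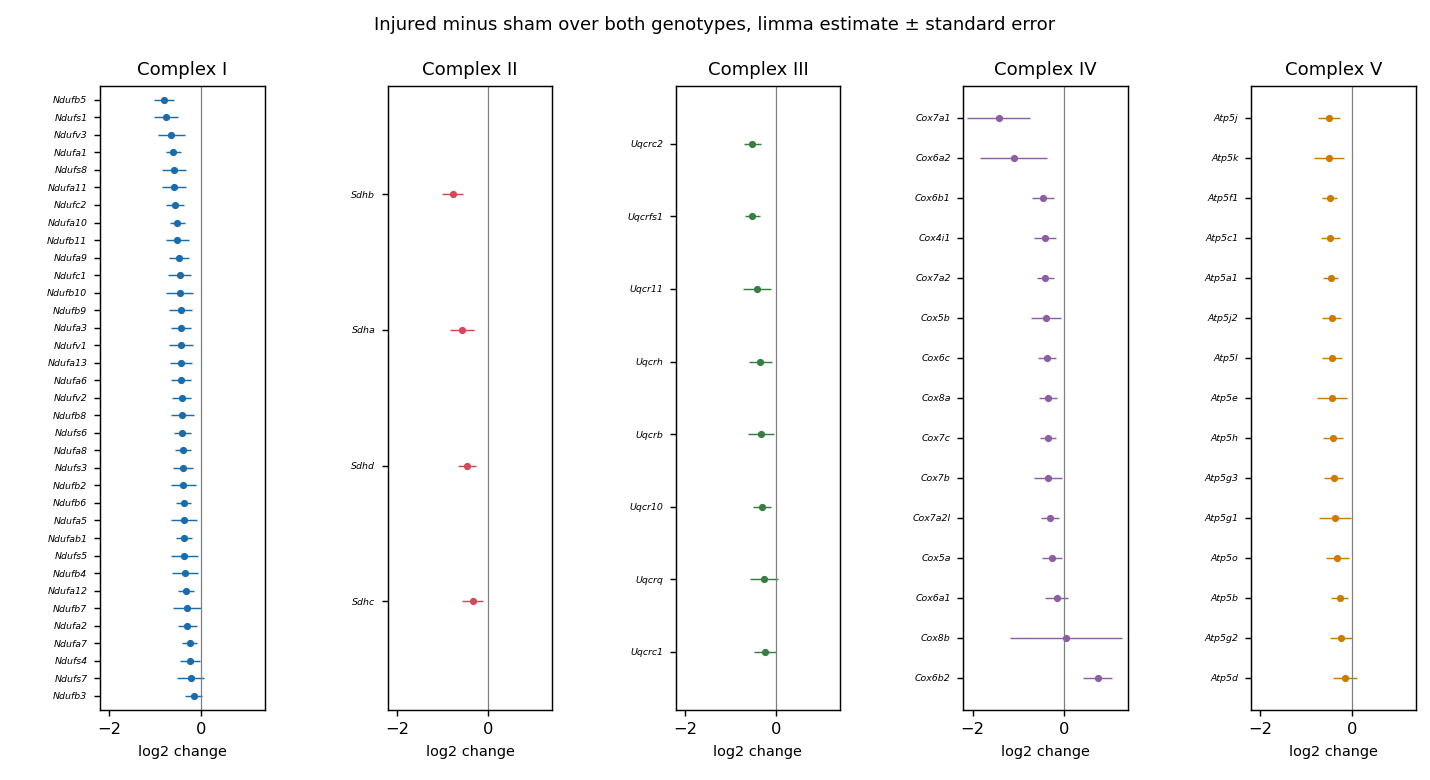
Log2 change of each tested subunit except 1 of complex I that is not reported here, injured minus sham over both genotypes (3 against 3 arrays), from limma; points are estimates and bars are standard errors, sorted within each complex. All points of complexes I, II, III and V lie left of 0, Cox7a1 and Cox6a2 lie farthest left with wide errors, and Cox6b2 lies to the right (0.74).

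Complex IV held both the largest differences and the only exceptions, and these were its tissue isoforms, alternative subunits known from heart, skeletal muscle, brown fat or testis. The 10 widely expressed isoforms had a median injury change of -0.36. Cox7a2l, counted with the complex by its name alone and in neither set of isoforms, had a change of -0.30. Without wild-type injured array 1 that change was -0.46. Cox4i1, the main isoform of subunit 4, stood at 7.88, 8.28 and 8.36 after sham surgery and 8.02, 7.41 and 7.86 after injury (change -0.41 ± 0.24 (SE; adjusted p = 0.538)), and Cox5b, a zinc-binding subunit, at 7.81, 8.09 and 8.42 after sham surgery and 8.25, 7.20 and 7.69 after injury (change -0.39 ± 0.33 (SE; adjusted p = 0.674)). Wild-type injured array 1 lay within the sham range for both, and without it the change of Cox5b was -0.74. Cox7a2 and Cox7c were the 2 subunits of the complex whose groups did not overlap (changes -0.41 ± 0.19 and -0.35 ± 0.18).

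Cox7a1, the heart and muscle isoform of subunit 7a (probe at chr7:30970337-30970948), stood at 3.39 and 4.01 on the wild-type sham arrays, 3.88 and 1.56 on the wild-type injured arrays, 4.82 on the sham array of Gpr97-deficient mice and 2.50 on its injured counterpart. It was high on 4 arrays, with wild-type injured array 1 among them, and low on the other 2 injured arrays. Its change was -1.43 ± 0.69 (SE; adjusted p = 0.48), with same-slide differences of -1.83, -0.13 and -2.32. Cox6a2, the heart and muscle isoform of subunit 6a, showed the same layout, at -0.30, 0.54 and 0.44 after sham surgery and 0.72, -1.67 and -1.68 after injury (change -1.10 ± 0.74 (SE; adjusted p = 0.591)). Their widely expressed partners differed far less: Cox7a2 by -0.36, -0.11 and -0.75 in the 3 pairs, and Cox6a1 by -0.08, -0.03 and -0.37. Without wild-type injured array 1 the changes were -2.22 for Cox7a1, -1.93 for Cox6a2 and -0.35 for Cox6a1. The difference between isoforms was not tested.

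Cox6b2, the isoform of subunit 6b known from testis, went the other way, at 1.05, 0.73 and 1.56 after sham surgery and 2.24, 1.24 and 2.08 after injury. Wild-type injured array 1 was highest, and the Gpr97-deficient sham array was above wild-type injured array 2, so the groups overlapped. Its change was 0.74 ± 0.31 (SE; adjusted p = 0.434), or 0.42 without wild-type injured array 1, against -0.46 ± 0.24 (SE; adjusted p = 0.507) for its partner Cox6b1. Cox8b, the heart, muscle and brown fat isoform of subunit 8, was above background on 4 arrays and stood at -2.55, -4.87 and -4.23 after sham surgery and -1.03, -4.64 and -5.84 after injury, the 2 last values being those not above background. Its change of 0.04 ± 1.23 had no stable sign, being -1.22 without wild-type injured array 1, while Cox8a had a change of -0.35 ± 0.19 (SE; adjusted p = 0.524). As for the tissues these isoforms are known from, of 9 muscle markers 3 to 6 were above background per array (log2 of their summed level -0.54 to 0.18 on sham and -0.02 to 0.66 on injured arrays), and Ckm was above background on 0. Of 10 fat markers 3 to 6 were above background (summed level 4.47 to 4.72 on sham and 4.37 to 5.45 on injured arrays). Both lists were mixed. Injury changes of the 5 fat markers tested ran from -1.66 to 3.44, with 2 lower and 3 higher. Those of the 6 muscle markers tested ran from -0.32 to 1.07, with 4 lower and 2 higher. Ucp1 and Adipoq were above background on wild-type sham array 1 alone, where 6 fat markers were above background and Cox8b stood at -2.55. On wild-type injured array 1, where Cox8b was brightest (-1.03), 3 fat markers were above background. On the Gpr97-deficient injured array, where Cox8b was lowest (-5.84), 6 were, with the highest summed level (5.45). The part of such RNA was not tested.

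**Figure D4:**
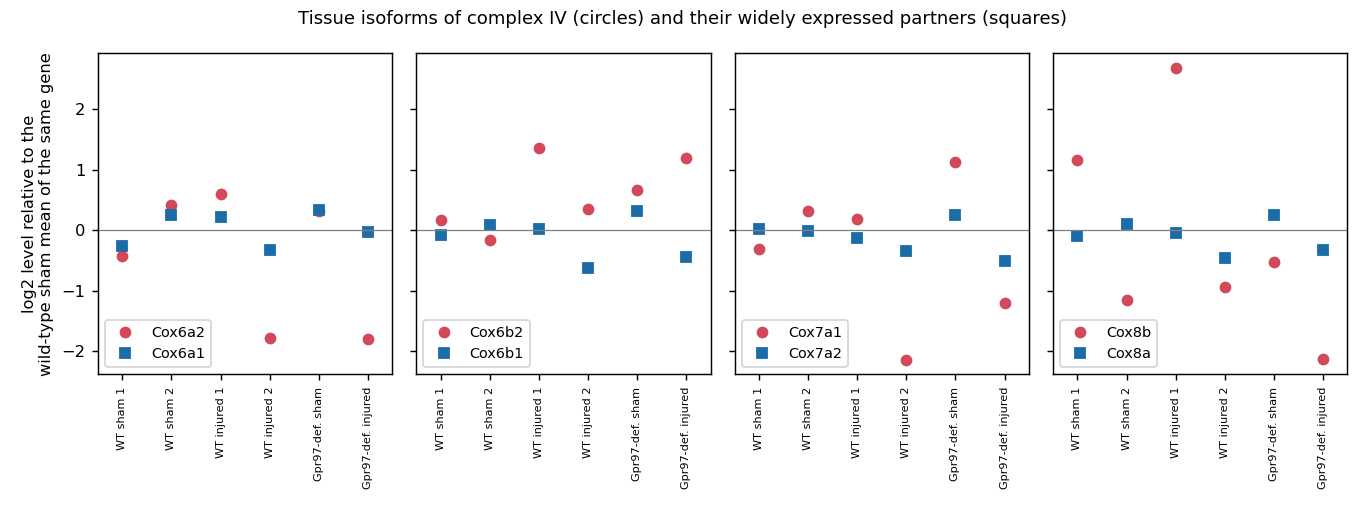
Log2 level of 4 tissue isoforms of complex IV (circles) and their widely expressed partners (squares) on each array, relative to the wild-type sham mean of the same gene. Cox6a2 and Cox7a1 lie low on wild-type injured array 2 and the Gpr97-deficient injured array; Cox8b was not above background on those 2 arrays.

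Promoter sequences are shown for the subunits whose 3 injured arrays all lay below the 3 sham arrays. RefSeq promoters (GRCm38.p6) matched 67 of the 81 subunit genes, with 72 start sites. The 250 bases before each start site were searched on both strands for the core letters of 4 factors known for respiratory genes: GCGCANGCG for NRF1, CCGGAAG for ETS factors such as GABP, TCAAGGTCA for oestrogen-related receptors and AAGATGGCG for YY1. The ETS motif ends on the 3 letters with which the YY1 motif begins, so a promoter can hold both in 1 stretch. A promoter of Atp5j held both motifs, and their positions in it are not shown here. NRF1 letters were found in 15 of 72 subunit promoters (20.8%), against 5.16% of all 32851 promoters, ETS letters in 12 (16.7%, against 6.91%), receptor letters in 1 (1.39%, against 0.387%) and YY1 letters in 1 (1.39%, against 0.606%). By complex, NRF1 letters stood in 7 of 34 promoters of complex I, 2 of 3 of complex II, 0 of 5 of complex III, 1 of 13 of complex IV and 5 of 17 of complex V. Of the 24 subunits that did not overlap, 20 had a promoter entry and 7 held a motif (5 with NRF1 letters), and of the other 54 tested subunits 46 had an entry and 16 held one (9 with NRF1 letters). A match is a description of the letters, not a bound site. The 7 stretches are printed 5′ to 3′ on the gene's strand, with the matched letters in capitals and up to 15 bases on either side.
Sdha (chr13:74350241-74350353, minus strand): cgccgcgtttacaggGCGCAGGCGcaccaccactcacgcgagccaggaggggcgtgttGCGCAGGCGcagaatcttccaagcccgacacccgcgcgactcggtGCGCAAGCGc
Sdhd (chr9:50603874-50603943, minus strand): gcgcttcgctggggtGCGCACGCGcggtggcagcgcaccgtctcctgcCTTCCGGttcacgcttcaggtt
Ndufa8 (chr2:36049339-36049382, minus strand): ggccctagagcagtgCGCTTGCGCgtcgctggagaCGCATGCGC
Ndufs6 (chr13:73328483-73328512, minus strand): ccgccgactgctgtgCGCCTGCGCcggcac
Ndufb6 (chr4:40279632-40279668, minus strand): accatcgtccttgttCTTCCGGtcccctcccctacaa
Atp5c1 (chr2:10080433-10080464, minus strand): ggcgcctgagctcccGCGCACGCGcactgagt
Atp5g3 (chr2:73911355-73911393, minus strand): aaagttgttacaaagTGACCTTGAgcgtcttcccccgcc
Sdha held 3 NRF1 matches within the last 113 bases before its start site, and Sdhd held an NRF1 match and an ETS match on the opposite strand. Ndufa8 held 2 NRF1 matches and Ndufs6 held 1, all on the opposite strand, and Atp5c1 held 1 on its own strand. Ndufb6 held the ETS letters and Atp5g3 the receptor letters, both on the opposite strand.

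Transcripts of the mitochondrial genome, which encodes further subunits of complexes I, III, IV and V, differed little between sham and injured arrays. The arrays carry probes for 4 of them (ND4 of complex I, CYTB of complex III, COX2 of complex IV and ATP6 of complex V), which were picked after their values were seen. ND4 stood at 7.07 and 7.47 on the wild-type sham arrays, 7.51 and 7.05 on the wild-type injured arrays, 7.46 on the sham array of Gpr97-deficient mice and 7.24 on its injured counterpart. CYTB stood at 7.92, 8.22 and 8.29 after sham surgery and 8.36, 7.92 and 8.14 after injury. For both, injured and sham arrays overlapped, and the 2 arrays of slide 1 were the lowest. The injury changes were -0.07 ± 0.22 for ND4, -0.01 ± 0.20 for CYTB, -0.06 ± 0.27 for COX2 and -0.15 ± 0.17 for ATP6, with no adjusted p below 0.776. Within slides, their median differences were -0.03, 0.06 and -0.23, against -0.48, -0.08 and -0.66 for the nuclear-encoded subunits. Without wild-type injured array 1 the changes of ND4, CYTB, COX2 and ATP6 were -0.22, -0.15, -0.28 and -0.24, beside -0.61 for the subunit median. The difference between the sets was not tested.

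**Figure D5:**
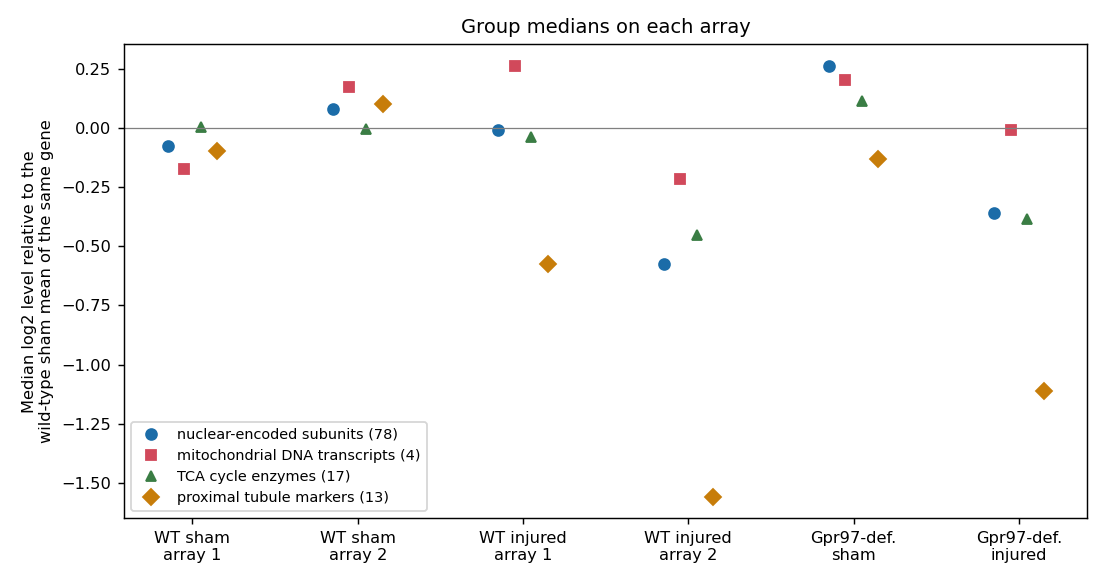
Median log2 level on each array, relative to the wild-type sham mean of the same gene. Shown are the 78 nuclear-encoded subunits, the 4 mitochondrial DNA transcripts, 17 genes labelled TCA cycle enzymes and 13 proximal tubule markers. The 17 genes are of the tricarboxylic acid cycle and pyruvate dehydrogenase. Subunits and these 17 genes lie low on the same 2 injured arrays, where the mitochondrial transcripts lie at -0.22 and -0.01. The tubule markers lie lower still and are also low on wild-type injured array 1 (-0.57).

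Other genes that the naming rule took in were mostly lower as well. The 7 Ndufaf assembly factors, which help build complex I without staying in it, had a median injury change of -0.28, with 6 of 7 below 0; Ndufaf1 and Ndufaf6 were lowest (-0.45 ± 0.19 (SE; adjusted p = 0.423) and -0.41 ± 0.15 (SE; adjusted p = 0.387)) and Ndufaf5 was above 0 (0.08 ± 0.23). Ndufa4, named for complex I and now counted with complex IV (probe at chr6:11850423-11850482), stood at 6.46, 6.61 and 6.65 after sham surgery and 6.12, 6.03 and 5.94 after injury. The groups were tight and apart, 6.58 ± 0.10 (SD, n = 3) after sham surgery and 6.03 ± 0.09 (SD, n = 3) after injury, wild-type injured array 1 included, and its change was -0.55 ± 0.16 (SE; adjusted p = 0.331). Atp5s, Atp5sl and Atp5c1-ps had changes of -0.53 ± 0.17, -0.55 ± 0.35 and -0.61 ± 0.22. Ndufaf5 and Atp5sl had changes of -0.02 and -0.90 without wild-type injured array 1.

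Genes around the chain were read from lists of related genes, to be set beside the 56.7% of all genes that were lower. Of 19 electron carriers, ubiquinone genes and other chain components 17 were lower (median -0.23), led by Etfa, which feeds electrons from fatty acid oxidation (-0.62 ± 0.17 (SE; adjusted p = 0.328)), and the ubiquinone synthesis gene Coq9 (-0.57 ± 0.20 (SE; adjusted p = 0.382)). This list holds Cyc1 (-0.43), the cytochrome c1 subunit of complex III, which the naming rule left out of that complex. Of 17 genes of the tricarboxylic acid cycle and pyruvate dehydrogenase 15 were lower (median -0.31), led by the isocitrate dehydrogenases Idh2 (-0.93 ± 0.33 (SE; adjusted p = 0.382)) and Idh3b (-0.55 ± 0.28 (SE; adjusted p = 0.493)). The 2 not lower were the pyruvate dehydrogenase genes Pdha1 (0.03) and Dlat (0.02), at -0.14 and -0.09 without wild-type injured array 1. Of 34 assembly factors outside the naming rule 22 were lower (median -0.16, or -0.26 without wild-type injured array 1), with Cox20 and Acad9 lowest (-0.64 ± 0.22 and -0.63 ± 0.22). Of 15 regulators of mitochondrial biogenesis 11 were lower (median -0.34): the deacetylase Sirt3 was at -0.76 ± 0.31, while the coactivator Pprc1 was at 0.97 ± 0.39, higher in all 3 pairs. Of 19 genes of the mitochondrial ribosome and import machinery 11 were lower, at a median of -0.08 (-0.12 without wild-type injured array 1), beside -0.06 over all genes; Mrpl13 (-0.29 ± 0.15) and Tomm40 (0.31 ± 0.19) differed most. In these 5 lists 0 genes passed an adjusted p under 0.05 and 11 of 104 (10.6%) had an unadjusted p under 0.05, all lower, against 6.71% of all genes.

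Proximal tubule markers were lower on all 3 injured arrays, also on wild-type injured array 1, where the subunits lay at the sham level. Of 13 measured proximal tubule markers 12 were lower after injury, with a median change of -1.10, and their summed log2 level ran from 10.44 to 10.77 on sham and from 9.04 to 9.99 on injured arrays. Per array their median relative to the wild-type sham mean was -0.10, 0.10, -0.57, -1.56 in wild type (sham 1, sham 2, injured 1, injured 2) and -0.13 and -1.11 in Gpr97 deficiency (sham, injured). Of 10 thick limb and distal tubule markers 9 were lower (median -0.59) and of 7 collecting duct markers 6 (median -0.30); the second median was -0.61 without wild-type injured array 1, and the first moved in the same direction, by over 1.5 times. The collecting duct markers lay at -0.89 on wild-type injured array 2 but at 0.37 and -0.02 on the other injured arrays, within the sham values of -0.22 to 0.43. All 9 tubular injury markers were higher (median 3.62), and their per-array medians were 2.42 and 4.88 on wild-type injured arrays 1 and 2 and 4.11 on the Gpr97-deficient injured array. Median changes were 0.10 for podocyte, -0.13 for endothelial and 0.12 for macrophage markers. In each of these lists some markers were lower and others higher. Changes ran from -0.31 to 0.39 for podocyte, -0.66 to 0.42 for endothelial and -0.83 to 2.49 for macrophage markers. Relative to the wild-type sham mean, the macrophage median was -0.59 and 0.59 on wild-type sham arrays 1 and 2. Of 9 neutrophil markers 4 and 6 were above background on the wild-type sham arrays, 8 on the sham array of Gpr97-deficient mice and 5 to 8 on the injured arrays, with Elane on 0. Log2 of their summed level was 1.85 and 1.32 on the wild-type sham arrays, 5.86 on the Gpr97-deficient sham array, the highest of all, and 4.88, 3.60 and 4.76 on the injured arrays. Of 6 measured red blood cell markers 4 or 5 were above background. Their summed level was 2.79, 2.89 and 6.37 on the sham arrays and 5.43, 1.49 and 4.54 on the injured arrays, again highest on the Gpr97-deficient sham array. The part of these shifts in the subunit result was not tested.

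In wild type alone (2 against 2 arrays, group means fitted over all 6), the median subunit change was -0.27, with -0.29, -0.48, -0.18, -0.22 and -0.26 in complexes I to V. Of 78 subunits 76 were lower, against 55.5% of all genes. Limma called 0 of them (0% of all genes) and found 0 with an unadjusted p under 0.05, against 3.17% of all genes on the lower side. Without wild-type injured array 1 the median was -0.57, and without array 2 it was -0.01, with complexes III and IV at 0.16 and 0.15, so the size of the wild-type difference rests on which injured array is used.

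No subunit differed detectably with Gpr97 deficiency at 2 against 4 arrays. With surgery as a term, the median difference, Gpr97-deficient minus wild type, was 0.09 over 78 subunits and ran from -0.04 in complex II to 0.14 in complex III. Without wild-type injured array 1 the median was 0.25, and without the Gpr97-deficient sham array it was -0.09, so its sign was not stable. Of 78 subunits 22 were lower, against 51.6% of all genes. Limma called 0 (0% of all genes), and 0 had an unadjusted p under 0.05, against 1.88% of all genes lower and 1.38% higher. In complex I the lowest differences were those of Ndufv2 (-0.16 ± 0.22), Ndufab1 (-0.12 ± 0.18) and Ndufb6 (-0.08 ± 0.17), and the highest those of Ndufb7 (0.33 ± 0.32) and Ndufb2 (0.27 ± 0.29). Complex II ran from Sdhb (-0.13 ± 0.25) through Sdhd (-0.06 ± 0.21) and Sdha (-0.02 ± 0.28) to Sdhc (0.11 ± 0.24). In complex III, Uqcrfs1 was lowest (-0.07 ± 0.17), and Uqcr11 (0.29 ± 0.33) and Uqcrq (0.24 ± 0.33) were highest.

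In complex IV the tissue isoforms Cox8b (-1.76 ± 1.30) and Cox6a2 (-0.44 ± 0.78) and the widely expressed Cox6c (-0.15 ± 0.22) were on the low side, and the tissue isoforms Cox6b2 (0.51 ± 0.33) and Cox7a1 (0.45 ± 0.73) on the high side. The value of Cox8b rests on signals that were not well above background on the Gpr97-deficient injured array and on wild-type injured array 2, so its size is not settled. Complex V ran from Atp5f1 (-0.13 ± 0.17), Atp5a1 (-0.08 ± 0.17) and Atp5j2 (-0.02 ± 0.22) to Atp5j (0.25 ± 0.26) and Atp5k (0.24 ± 0.35). Most of these standard errors exceed the difference beside them. The Gpr97-deficient sham array was the highest of the 6 for 62 of 78 subunits; it was also the highest for the summed neutrophil and red blood cell markers, whose part in the genotype difference was not tested.

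The injury difference was not shown to depend on genotype. The interaction, injury change in Gpr97 deficiency minus injury change in wild type, was below 0 for 75 of 78 subunits, against 50.6% of all genes, with a median of -0.36, or -0.08 without wild-type injured array 1. Limma called 0 (0% of all genes) and found 0 with an unadjusted p under 0.05, against 0.867% of all genes on the lower side. The Gpr97-deficient side is 1 array against 1, and the fit gives it the spread of the wild-type arrays. The wild-type side includes the discordant array: on the same slide the subunit median was -0.08 in wild type and -0.66 in Gpr97 deficiency, while the wild-type pair on slide 1 had -0.48.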

How the data were processed

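RNA of 6 mouse kidney samples was measured on single-colour Agilent arrays, read per the file headers with Feature Extraction 10.7.1.1 on slide 1 and 10.7.3.1 on slide 2, with probe positions in mm9. The values used were the processed signal intensity of each spot in the deposited scanner files. The flags for signal well above background and for outlier spots are other columns of the same files, as deposited. The authors' deposited series values, read as log2 values after comparison with the scanner signals (rho at least 0.99997, medians 6.07 to 6.09, their centring unknown), served as an alternative, and limma appears, with no version, in the submitters' processing notes.

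Signals were taken as log2 minus the 75th percentile of each array over 43379 non-control spots; non-uniform and population outlier spots were dropped and spots of a probe averaged. Each gene was read from its brightest probe by mean. The counts of genes whose sham and injured arrays did not overlap used that probe alone. Among 29 member genes with several probes above background throughout, 27 had changes of 1 sign, the exceptions being Atp5f1 and Ndufa3. Two-sided fits were made in R 4.3.3 with limma 3.58.1, the tables being read by the data.table package, version 1.17.8, over all 19615 genes above background on at least 2 arrays, with Benjamini-Hochberg adjustment and a threshold of 0.05: an additive model of injury and genotype (3 residual degrees of freedom) and group means (2). Only the additive injury fit was run on simulated data, with planted changes larger than those of most subunits. How often changes of subunit size would be called was therefore not tested. The exact smallest p for 3 arrays against 3 by permutation is 0.1, so the fit across genes was used.

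Named genes were, in each complex, the 3 lowest and 2 highest members for injury and for genotype, a fixed set of catalytic subunits and isoforms, and 2 genes of each related list. Members and lists were chosen with earlier results of these data known. Alternatives were quantile normalization, normexp background correction (offset 50), the deposited values, no background filter or one on all arrays, the mean of probes, slide as a block, a trended robust prior and leaving out each array. Motif letters were settled after counts of a longer NRF1 form had been seen.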

Additional observations from a re-analysis of the deposited data

How the results depend on the processing

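No member was called under any alternative run. All medians of complexes over both genotypes stayed below 0, the subunit median running from -0.61 (normexp) to -0.32 (quantile) over settings with all 6 arrays. Normexp moved the injury median of all genes from -0.06 to 0.19, so subunits stood lower relative to it. Genes called for injury numbered 1 with quantile normalization, 1 with slide as a block, 1 with the deposited values and 3 with a trended robust prior, which also called 1 for genotype, against 0. In wild type, normexp gave medians of -0.64 in complex I, -0.57 in complex V and -0.59 over all subunits. Subunits lower at an unadjusted p under 0.05 were 5 of 78 with normexp, 6 without a filter and 19 with slide as a block. Among all genes, 904 of 19615, 2002 of 27343 and 3468 of 19615 passed it in either direction. Such subunits were 5 and 3 without wild-type sham array 1 or 2, and 54 and 2 without wild-type injured array 1 or 2. Among all 19615 genes, 1762, 1595, 3416 and 1683 then passed in either direction. Without either Gpr97-deficient array, the injury fit repeats the wild-type comparison, which had 0 such subunits, and is no separate check. Subunits with every injured below every sham array were 24 with all 6 arrays, and leaving out an array can only keep or raise that number. They were 53 without wild-type sham array 1, where the share of all genes was not taken. Without wild-type injured array 1 they were 67. The share of all genes was 13.1% with all 6 arrays and 21.2% without wild-type injured array 1. Leaving out 1 array, the wild-type medians ran from -0.57 to -0.011 over all subunits, -0.64 to -0.044 in complex I, -0.83 to -0.13 in complex II, -0.56 to 0.16 in complex III, -0.54 to 0.15 in complex IV and -0.45 to -0.012 in complex V; the lower ends came without wild-type injured array 1 and the upper without array 2.

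Genotype differences were not stable in sign. Normexp gave Atp5a1 0.15, Atp5f1 0.096, Atp5j2 0.16, Ndufab1 0.14, Ndufb6 0.13, Ndufv2 0.080, Sdha 0.17, Sdhb 0.15, Sdhd 0.15 and Uqcrfs1 0.21. The mean of probes gave Atp5a1 0.056 and Sdha 0.00697. Slide as a block gave Atp5j -0.000705, Atp5k -0.12, Cox7a1 -0.28, Ndufb2 -0.020, Sdhc -0.11, Uqcr11 -0.053 and Uqcrq -0.11. Without 1 array, genotype differences ran from -0.24 to 0.085 for Atp5a1, -0.30 to 0.25 for Atp5j2, -0.082 to 0.57 for Atp5k, -1.20 to 0.32 for Cox6a2, -0.38 to 0.093 for Cox6c, -0.22 to 1.12 for Cox7a1, -0.27 to 0.018 for Ndufab1, -0.23 to 0.068 for Ndufb6, -0.37 to 0.053 for Ndufv2, -0.21 to 0.17 for Sdha, -0.27 to 0.029 for Sdhb, -0.021 to 0.26 for Sdhc, -0.17 to 0.066 for Sdhd, -0.20 to 0.067 for Uqcrfs1 and -0.20 to 0.26 for the complex V median, and the injury change of Cox8b from -1.22 to 0.87. The cause of these differences was not tested. No paired analysis was possible because the labels give the groups no shared replicate numbers; the slide, a batch and not a replicate number, was the block used.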
